A study of Mus musculus with 66 samples.

Results

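The trimethylation of histone H3 at lysine 4 (H3K4me3) was compared between CV and ENR cultures of mouse small intestinal organoids. The study describes CV cultures as stem cell-enriched and ENR as its regular medium. The comparison takes the H3K4me3 scores of CV organoids, libraries 2, 3 and 4, and of ENR organoids, libraries 1, 2 and 4, which are 6 of the 66 samples of the series, over 94469 regions of the mm9 genome. Organoids are spheres of intestinal epithelium grown from crypts in a gel. All were from the same kind of line, in which a GFP and diphtheria toxin receptor cassette replaces part of 1 copy of Lgr5 (Lgr5 GFP-DTR/+). ENR organoids were grown with EGF, Noggin and R-spondin, and contain stem, Paneth and differentiated cells together. CV organoids received the same factors plus 3 µM CHIR99021, an inhibitor of GSK3 that activates Wnt signalling, and 1 mM valproic acid, an inhibitor of histone deacetylases that the study used to act on Notch signalling. Both compounds were always given together, so their effects cannot be told apart, and the age and number of the donor animals are not given in the sources used here. The 3 libraries of EN organoids, the ENR medium without R-spondin, entered only the shared estimate of the spread and are shown for reference. The sources used here do not say that libraries of a group came from separate animals or cultures, so p-values measure only the spread between these libraries, which may be technical.

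H3K4me3 is laid down by the SET1 and MLL methyltransferases around the start sites of genes, mostly at CpG-rich promoters, and is removed by KDM5 demethylases. Many promoters of developmental genes carry the Polycomb mark H3K27me3 in tissues where the gene is silent, and some of them carry low H3K4me3 at the same time. In the intestine the mark covers the promoters of most expressed genes in stem and differentiated cells alike, and differs less between these cells than enhancer marks do.

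Between 79.1% and 86.9% of the summed score of the 6 libraries lay in regions within 1000 bp of an annotated start site. Vil1, the brush border villin gene, and Hnf4a, an intestinal transcription factor gene, had mean promoter scores of 70.7 ± 11.7 and 88.7 ± 17.2 in CV (SD, n = 3) and of 68.0 ± 3.61 and 76.7 ± 11.9 in ENR. Of 11 marker genes of mesenchymal, endothelial and immune cells 3 had a promoter region and 2 reached the minimum score. Both had higher scores in CV without overlap, as did 1547 of the 13738 gene promoters tested. Col1a1, a fibrillar collagen, had 28, 36 and 39 against 18, 19 and 18. Pdgfra, a mesenchymal receptor, had 25, 23 and 25 against 16, 17 and 18. In the limma fits described below Pdgfra was not called (adjusted p of 0.117 to 0.446). Col1a1 was called with CV and ENR libraries alone (adjusted p = 0.00768) but not with the EN libraries included (0.152). Col1a1 RNA differed by 2.45 on the log2 scale, and the part of such cells in the results was not tested. CV and ENR libraries differed in how the score was spread. CV libraries held 8.31% to 12% of their score in regions under the minimum, and ENR libraries 5.51% to 5.90%, without overlap. The summed score overlapped, with 817265 to 940440 in CV and 840599 to 863358 in ENR. The variance of the log2 scores between replicates averaged 0.107 for the CV libraries and 0.0794 for the ENR libraries. For the EN libraries it was 0.373. EN 1 stood apart, with 54407 regions at a score of 1, against 19785 to 26168 in the other libraries. It had 7193 regions at 0, against 20990 to 44224. Its log2 scores correlated at 0.896 with EN 2 and 0.854 with EN 4, which correlated at 0.950 with each other. The cause was not tested.

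The sequences of 6 regions on which the results turn are shown first, because they represent the kinds of region that gained and lost the mark. Each is a stretch of 200 bases outside annotated UTRs, as near to the centre of the region as possible, read 5′ to 3′ from mm9, with every CpG in capitals. Hoxc6, Myh10, Snap25 and Anxa1 had more H3K4me3 in CV, and the Bmp3 promoter and the region near Capn10 had less.
Hoxc6 (chr15:102829203-102829402, forward strand): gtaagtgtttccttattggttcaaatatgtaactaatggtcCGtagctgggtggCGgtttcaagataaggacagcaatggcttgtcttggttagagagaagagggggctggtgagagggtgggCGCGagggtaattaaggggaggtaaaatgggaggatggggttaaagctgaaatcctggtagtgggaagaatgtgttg
Myh10 (chr11:68505982-68506181, forward strand): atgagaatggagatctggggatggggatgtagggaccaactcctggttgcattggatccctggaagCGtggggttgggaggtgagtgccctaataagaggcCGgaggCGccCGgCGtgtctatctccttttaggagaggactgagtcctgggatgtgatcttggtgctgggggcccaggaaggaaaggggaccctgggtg
Snap25 (chr2:136539337-136539536, forward strand): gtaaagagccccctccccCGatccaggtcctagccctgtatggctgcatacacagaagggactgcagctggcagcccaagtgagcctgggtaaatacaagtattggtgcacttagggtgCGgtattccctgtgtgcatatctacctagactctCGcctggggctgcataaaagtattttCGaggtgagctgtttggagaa
Anxa1 (chr19:20464396-20464595, reverse strand): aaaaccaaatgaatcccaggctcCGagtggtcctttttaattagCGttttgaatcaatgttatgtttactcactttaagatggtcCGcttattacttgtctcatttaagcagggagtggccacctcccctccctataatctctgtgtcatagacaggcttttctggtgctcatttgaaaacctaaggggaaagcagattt
Bmp3 (chr5:99284132-99284331, forward strand): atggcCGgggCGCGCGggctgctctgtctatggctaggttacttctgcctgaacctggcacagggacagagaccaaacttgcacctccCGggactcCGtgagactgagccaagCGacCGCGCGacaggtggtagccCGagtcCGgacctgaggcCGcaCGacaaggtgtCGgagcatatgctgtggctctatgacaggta
near Capn10 (chr1:94847601-94847800, forward strand): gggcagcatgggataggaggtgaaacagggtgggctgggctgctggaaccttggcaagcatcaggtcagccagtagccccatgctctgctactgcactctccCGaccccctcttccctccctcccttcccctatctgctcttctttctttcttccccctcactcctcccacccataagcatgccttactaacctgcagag
Over the whole regions there were 3.37 CpG per 100 bases at Hoxc6, 5.88 at Myh10, 3.63 at Snap25 and 7.28 at Bmp3. The Anxa1 region, which lies 343 bp from the start site, held 1.16 and the region near Capn10 held 1.10.

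To ask which promoters and other regions differ in H3K4me3 between CV and ENR organoids, log2(score + 1) was compared with limma. The 20033 regions with a mean score of at least 5 were tested. In the fit of all 9 libraries, 141 regions passed an adjusted p of 0.05. Of these, 136 were higher in CV, 0.679% of the regions tested, and 5 were lower, 0.025%. The median log2 difference of the higher regions was 2.07, with a range of 0.77 to 3.83. In all 141 regions the 3 CV scores and the 3 ENR scores did not overlap, as was so for 5360 of the 20033 regions tested. Because 93 of the 136 higher regions had an ENR mean under 5, they passed the minimum through CV alone, and their number depends on it. In a fit of the 6 CV and ENR libraries alone, without the EN libraries and their larger spread, 2745 regions passed, of which 1912 were higher in CV (9.54% of those tested) and 833 lower (4.16%). All 141 regions were among them. Both fits take the difference from the same 6 libraries, so its direction could not change, and the overlap is no independent support.

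How many regions differed therefore depended on the libraries in the fit. Without the EN 1 library the shared fit called 2035 regions. With all 3 EN libraries but without 1 CV or ENR library it called between 0 and 16, with 0 when CV 3, CV 4 or ENR 2 was left out, where limma still gave 1622, 1534 and 2708 regions with an unadjusted p under 0.05. Without CV 2, ENR 1 or ENR 4 it called 16, 6 and 1. In the fit without EN libraries, 115 of the 141 regions were called in each of the 6 fits that left out 1 library. The 22 called regions named by rule were each called in at least 5 of these 6 fits, and 129 of the 141 were. Differences are given as fitted log2 differences of score + 1, which have the same size in both fits. Their SE and 95% intervals are those of the 9-library fit unless stated.

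The difference between the cultures also moved with the level of the mark. The median log2 difference between CV and ENR was 0.49 in regions with a mean score of 5 to 10, 0.10 in those of 20 to 40, -0.12 in those of 80 to 160 and -0.46 in the 99 regions at or above 160. A scaling of the libraries that removes this trend was added once the data had been seen. With it the 6-library fit called 731 regions higher in CV (3.65%) and 480 lower (2.4%). The 141 regions all had the same direction and were called in this scaled 6-library fit. The 9-library fit with the same scaling called 41 regions, 34 higher and 7 lower, and 8 of the 22 called regions named by rule were no longer called in it. Of the 2745 regions of the 6-library fit, 1046 kept their call and direction.

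**Figure D1:**
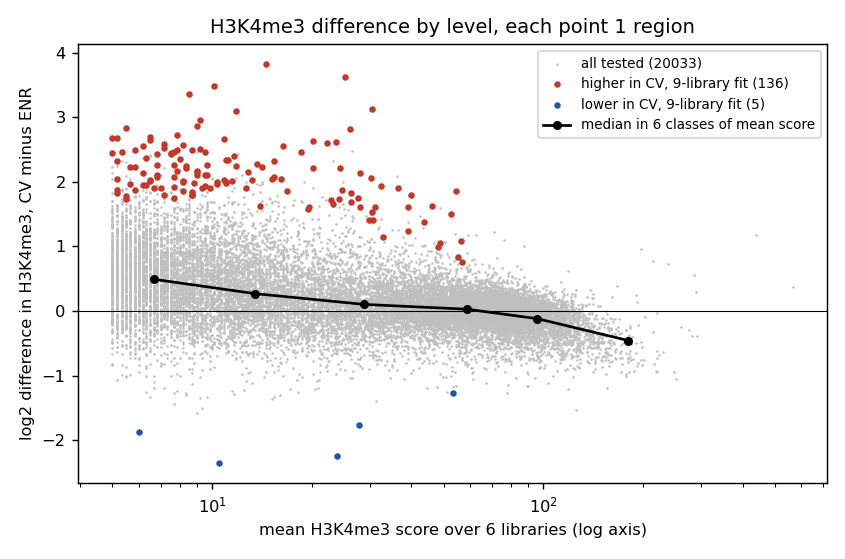
Each point is 1 of the 20033 tested regions, with its mean H3K4me3 score over the 6 CV and ENR libraries on a log x axis and its log2 difference, CV minus ENR, on the y axis. Red and blue points are the 136 regions higher and the 5 lower in CV in the 9-library fit, and the black line joins the medians of 6 classes of mean score, which fall from 0.49 to -0.46.

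Among promoters with a mean score of at least 20 in either culture, Mdga2 and Foxn4 rose most. Mdga2, which encodes a neuronal adhesion protein that binds neuroligins, had scores of 52, 47 and 43 in the CV libraries and of 2, 3 and 4 in the ENR libraries. The log2 difference was 3.62 ± 0.41 (SE, n = 3 per culture, adjusted p = 0.00869 by limma). Foxn4, a forkhead factor of retinal and spinal progenitors, had scores of 30, 17 and 19 in CV and of 2, 2 and 1 in ENR, a difference of 3.09 ± 0.44. Snap25, a SNARE protein of synaptic vesicle release from the neuronal list, had 16, 15 and 20 in CV and 2, 1 and 1 in ENR, a difference of 2.96 ± 0.36. The CV and ENR scores of these promoters lay far apart, and the EN scores were 7 or lower. Their CpG content relative to that expected from base composition was 0.76, 0.63 and 0.49.

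Other transcription factor promoters gained the mark to similar levels. Hoxc6, one of the homeobox genes that set position along the body axis, had scores of 31, 44 and 41 in CV and of 8, 4 and 5 in ENR, a difference of 2.60 ± 0.35. Dmrt2, a DM domain factor of somite development, had 32, 28 and 36 in CV and 4, 6 and 5 in ENR, with 2.47 ± 0.36. Tshz2, a teashirt zinc finger gene, had 42, 43 and 37 in CV and 7, 9 and 8 in ENR, with 2.21 ± 0.35. The region at Tshz2 also overlaps an exon of the noncoding gene Gm16898, so the mark cannot be assigned to 1 of them. Hivep3, a zinc finger gene, rose by 2.24 ± 0.42 from a mean of 3.33 ± 0.577 to 20.3 ± 7.23. The adjusted p of these 4 promoters lay between 0.0122 and 0.0357.

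The remaining promoters with large rises belonged to genes of the cytoskeleton, the matrix, complement and metabolism. Myh10, the heavy chain of nonmuscle myosin IIB, had scores of 43, 36 and 45 in CV and of 7, 4 and 7 in ENR, a difference of 2.62 ± 0.40. Lamb1, a laminin chain of the basement membrane, had 26, 20 and 26 in CV and 4, 4 and 5 in ENR, with 2.22 ± 0.32. C4bp, a complement inhibitor, had 14, 29 and 27 in CV and 3, 6 and 3 in ENR, with 2.27 ± 0.38. At C4bp the lowest CV score, 14, lay above the highest ENR score, 6, and the 3 EN libraries had 11, 11 and 18. Aspg, an asparaginase, rose by 2.33 ± 0.35 from 4.33 ± 0.577 to 26.3 ± 7.02. The CpG ratio was 0.15 at C4bp and 0.26 at Aspg, against 0.68 at Myh10 and 0.65 at Lamb1. The 10 largest promoter rises among regions with a mean of at least 20 in a culture all overlapped a start site and the UTR of their gene. Below that mean, larger rises such as that of Anxa1 lay beside a start site.

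**Figure D2:**
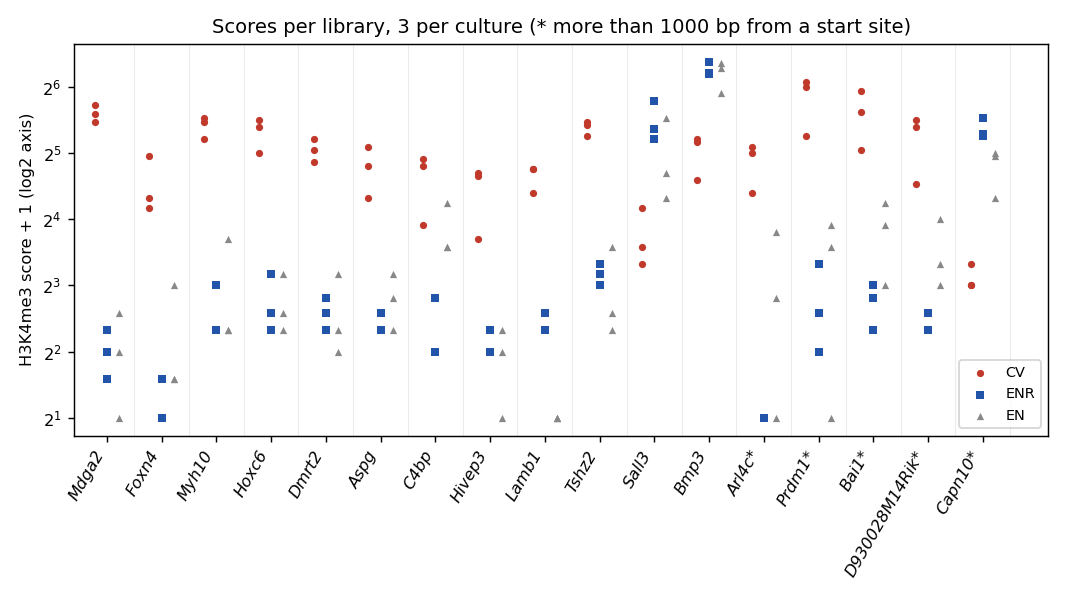
H3K4me3 score + 1 on a log2 axis for the regions with the largest differences, 1 point per library, with CV in red circles, ENR in blue squares and EN in grey triangles. An asterisk marks regions more than 1000 bp from any annotated start site, and the CV and ENR points do not overlap in any region shown.

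Regions farther than 1000 bp from a start site made up 41 of the 136 rises. The strongest lay in mm9 at chr1:90596543-90596903, within an exon of Arl4c, a small GTPase gene, 1548 bp from its start. Its scores were 33, 31 and 20 in CV and 1, 1 and 1 in ENR, a difference of 3.83 ± 0.57. At chr10:44177056-44177445, in an intron of Prdm1, 1048 bp from a start site, the scores were 63, 66 and 37 in CV and 9, 5 and 3 in ENR, with 3.14 ± 0.64. Prdm1 encodes Blimp1, a repressor that marks the fetal and suckling epithelium. The neighbouring promoter region of Prdm1 had 34, 48 and 37 in CV and 27, 30 and 21 in ENR, and its difference of 0.59 was not called in the 9-library fit (adjusted p = 0.28). An intergenic region 27702 bp from Bai1, an adhesion receptor gene, had 60, 48 and 32 in CV and 6, 7 and 4 in ENR. An intronic region of D930028M14Rik, 1917 bp from its start, had 41, 44 and 22 in CV and 5, 5 and 4 in ENR. The EN scores were 1, 13 and 6 at Arl4c and 14, 18 and 7 at the region near Bai1.

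Only 5 regions lost the mark in the 9-library fit, and 2 of them were promoters. Bmp3, a ligand of the bone morphogenetic protein family, had scores of 36, 23 and 35 in CV and of 82, 72 and 73 in ENR. The difference was -1.27 ± 0.20 (adjusted p = 0.0123), and the 3 EN libraries, at 59, 81 and 77, lay near ENR. Sall3, a spalt-like zinc finger gene, had 17, 9 and 11 in CV and 40, 36 and 54 in ENR, with -1.76 ± 0.33 (adjusted p = 0.0331). An intergenic region at chr1:94847248-94848153, 3786 bp from Capn10, a calpain protease gene, had 7, 9 and 7 in CV and 45, 38 and 37 in ENR, with -2.24 ± 0.26 (adjusted p = 0.00869). The other two lay near RP23-396G1.3 and AC122782.1, had ENR means under 20, and fell by 2.35 and 1.87 on the log2 scale.

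The promoters of stem cell and Wnt target genes did not move together. All 29 members with a region were tested, and in the 9-library fit 0 were called in either direction by limma, with 7 at an unadjusted p under 0.05, where 0.582% of the 13738 gene promoters tested were called higher and 0.0146% lower. In the 6-library fit 2 were higher and 2 lower, beside 5.51% and 6.17% of all gene promoters, and after level scaling 2 were higher and 1 lower, beside 3.14% and 2.53%. The median log2 difference of the list was -0.16 and that of all gene promoters 0.01. Lgr5, the receptor that marks crypt stem cells, had 62, 62 and 57 in CV and 66, 74 and 61 in ENR, a difference of -0.15 with a 95% interval of -0.56 to 0.27. Ascl2, the stem cell factor, differed by -0.10 with an interval of -0.48 to 0.27, and Sox9 by -0.40 with an interval of -0.91 to 0.10. Cd44, a Wnt target and surface receptor, differed by 0.37 with an interval of -0.04 to 0.79. In the 6-library fit the intervals of Sox9, -0.73 to -0.07, and Cd44, 0.04 to 0.71, excluded 0, and those of Lgr5 and Ascl2 did not. Neither Sox9 nor Cd44 was called there by limma (adjusted p = 0.0954 and 0.130). Axin2, the feedback inhibitor of the Wnt pathway, had 142, 117 and 105 in CV and 192, 166 and 222 in ENR. It fell by 0.67 in the 6-library fit (adjusted p = 0.00414), but with an adjusted p of 0.266 in the 9-library fit and 0.0930 after level scaling. An intergenic region 10219 bp from Axin2, named after its values were seen, rose by 1.57, from 11, 8 and 9 in ENR to 26, 33 and 30 in CV.

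The genes named in the next paragraphs from the 6-library fit, with or without level scaling, were chosen after their values were seen. In the stem cell list the 2 higher promoters were Tnfrsf19, a receptor of the TNF family, with 19, 23 and 26 in CV and 3, 6 and 7 in ENR, and Prox1, a homeobox factor, with 25, 30 and 23 against 9, 11 and 16. Both kept their call after level scaling, with adjusted p-values of 0.00420 and 0.0418. Msi1, an RNA-binding protein gene, was the other lower promoter, and its adjusted p after level scaling was 0.0883. The 1 promoter of the list that was lower after level scaling was Olfm4, a secreted glycoprotein of crypt base cells, with 4, 7 and 7 in CV and 9, 9 and 7 in ENR. It differed by -0.44 before and -0.92 after that scaling (adjusted p = 0.375 and 0.0435 in the 6-library fit), and its RNA by -6.78.

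Markers of differentiated cells were mixed, and many were too low to test. Of all gene promoters, 0.582% were higher in the 9-library fit, and 5.51% were higher and 6.17% lower in the 6-library fit. After level scaling these were 3.14% and 2.53%. Of 26 enterocyte genes 16 were tested, and Mep1a, the brush border protease meprin, was the only one called in the 9-library fit. Its scores of 7, 16 and 8 in CV and of 1, 1 and 2 in ENR were low, its EN score was 7 in each library, and it was called in 5 of the 6 fits that left out 1 library. Mep1b and Cyp3a13 were higher in the 6-library fit, by 1.44 and 0.84, and stayed so after level scaling. With that scaling Sis, the sucrase-isomaltase gene, and Apoa4, an apolipoprotein gene, were called lower, at -1.38 and -1.52 (adjusted p = 0.00939 and 0.0113), from scores of at most 7 in CV and 11 in ENR. Alpi and Vil1 differed by -0.15 and 0.04, with intervals of -0.98 to 0.67 and of -0.40 to 0.48. Of 23 enteroendocrine genes 7 were tested. Tac1, Rfx6 and Pax6 were higher in CV in the 6-library fit, by 1.70, 1.54 and 1.18, and Insm1 was lower, by a difference of -0.83. After level scaling Pax6 was no longer called (0.62, adjusted p = 0.22), and the others were. Of 12 Paneth, 12 goblet and 13 tuft cell genes only 1, 6 and 2 were tested. In the 6-library fit Creb3l1 of the goblet list was lower, at -0.76. Muc2, Defa6 and Reg4 had no region within 1000 bp of a start site, and that of Dclk1 had scores of 2, 1 and 1 in CV and 0 in each ENR library, under the minimum.

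Intestinal lineage factors and Notch pathway genes showed few differences, and the Yap and fetal-type epithelium list showed a larger share. Of 22 tested intestinal lineage factors 1 was higher and 3 lower in the 6-library fit, beside 5.51% and 6.17% of all gene promoters. Hes1, the Notch target, had 46, 48 and 30 in CV and 75, 62 and 106 in ENR, and Gata6 had 22, 29 and 23 against 46, 36 and 46. Both stayed lower after level scaling, with adjusted p-values of 0.0229 and 0.0139, while Klf5 did not pass it (0.0705). Among 15 tested Notch pathway genes Hes1 and Rbpj, the DNA-binding partner of the Notch receptors, were lower, at -0.95 and -0.57. This stood beside 6.17% of all gene promoters lower in the 6-library fit. Rbpj did not pass after level scaling (adjusted p = 0.0696), and its class of mean score had a median difference of -0.12. Hnf4g and Hnf4a differed by 0.14 and 0.20, with intervals of -0.28 to 0.55 and of -0.20 to 0.60. Of 7 tested genes of the Yap and fetal-type epithelium list, Anxa1, Clu, Gja1 and Areg were higher in the 6-library fit and 0 were lower, beside 5.51% and 6.17% of all gene promoters. The list median was 0.92, and 0.58 after level scaling. Anxa1, a phospholipid-binding protein of regenerating and fetal epithelium, had 9, 22 and 18 in CV and 0, 1 and 1 in ENR, a difference of 3.36 ± 0.45 (adjusted p = 0.0122). Anxa1 and Areg kept their call after level scaling, and Clu and Gja1 did not.

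Hox genes were the list with the most calls. Of 13 tested promoters, Hoxc6, Hoxb13 and Hoxa10 were higher in the 9-library fit, where 0.582% of all gene promoters were. Hoxb13, the most posterior gene of its cluster, had 12, 16 and 12 in CV and 1, 2 and 2 in ENR, a difference of 2.44 ± 0.33 (adjusted p = 0.0122). Hoxa10 had 8, 12 and 9 in CV and 1, 2 and 3 in ENR, with 1.87 ± 0.37 (adjusted p = 0.0454). Hoxb9, Hoxd3 and Hoxd9 joined them in the 6-library fit, and Hoxa4, an anterior gene that was already strongly marked, was lower, with 78, 76 and 53 against 119, 104 and 121. These 6 higher and 1 lower stood beside 5.51% and 6.17% of all gene promoters. After level scaling 4 were higher and 1 lower, beside 3.14% and 2.53%. A further 16 of the 29 Hox genes with a region did not reach the minimum score. Snap25 was the only called promoter of 3 tested neuronal genes, and Tubb3 and Nefm, a tubulin and a neurofilament gene, differed by 0.69 and -0.22 (adjusted p = 0.528 and 0.875).

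Among genes of the enzymes that set or remove the modifications concerned, all calls were lower. Of 16 tested H3K4 methyltransferase, cofactor and demethylase genes 6 were lower in the 6-library fit and 0 higher, beside 6.17% and 5.51% of all gene promoters, and 2 were lower after level scaling, beside 2.53%. The list median was -0.17. Setd1b had 73, 53 and 40 in CV and 126, 97 and 147 in ENR, a difference of -1.16 and an adjusted p of 0.0107 after level scaling. Mll1 differed by -0.85 and also passed it (0.0229), whereas Mll2, Mll3, Setd1a and Kdm5b did not. Among 9 tested histone deacetylase genes, Hdac7 alone was called in the 6-library fit. There 6.17% of all gene promoters were lower. Hdac7 had 49, 46 and 38 in CV and 88, 94 and 152 in ENR, a difference of -1.27 (0.00284 after level scaling). Of 19 cell cycle and 10 housekeeping genes tested, 0 were called by limma in the 9-library and 6-library fits, with 0 and 0 at an unadjusted p under 0.05 in the 9-library fit, and their medians were -0.08 and -0.06. Actb and Gapdh differed by -0.22 and -0.20, with intervals of -0.69 to 0.24 and of -0.59 to 0.20. Among 8 tested imprinted genes Peg3 was higher and Gnas lower in the 6-library fit, beside 5.51% and 6.17% of all gene promoters. Neither passed after level scaling. Cdkn1c, an imprinted inhibitor of the cell cycle that is in both lists, was called lower with that scaling alone, at -0.99 (adjusted p = 0.0272), with 8, 9 and 8 in CV and 14, 13 and 14 in ENR. Dazl was the only germline gene tested and differed by 0.15.

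**Figure D3:**
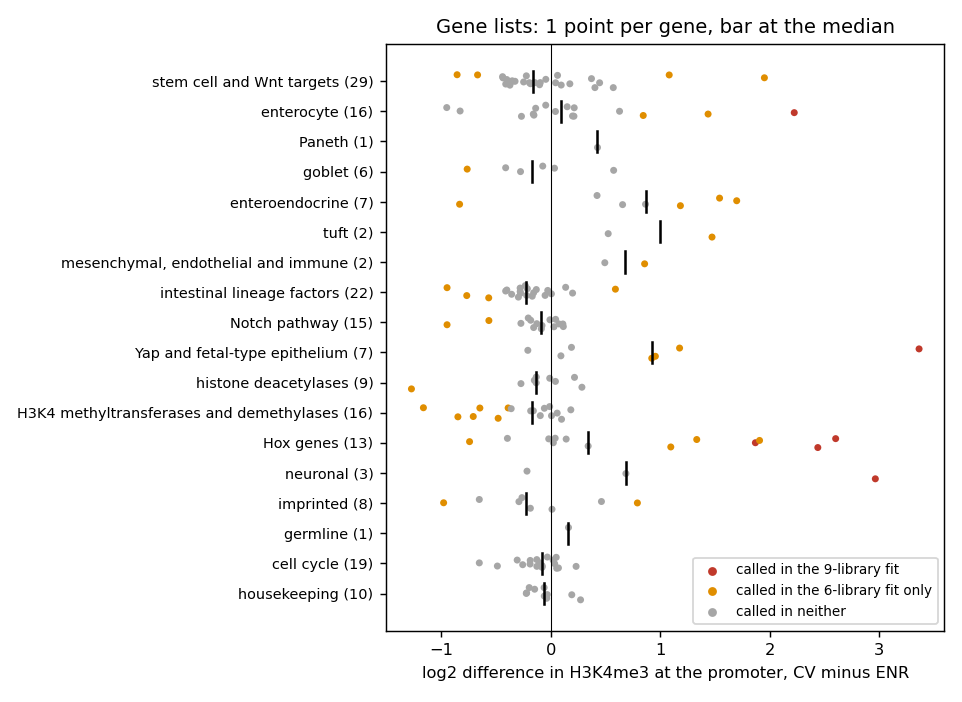
Log2 difference in H3K4me3 at the promoter, CV minus ENR, for the tested genes of 18 lists, 1 point per gene, with the number tested in brackets and a bar at the list median. Red points were called in the 9-library fit, orange points in the 6-library fit only, and the vertical spread within a list carries no information.

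The regions that gained H3K4me3 were also described by features that did not enter the comparison. A start site was at most 1000 bp away in 95 of the 136, or 69.9% (95% Wilson interval 61.7% to 76.9%), close to the 71.6% of all regions tested. Their median width was 712 bp against 1014 bp and their median CpG ratio 0.55 against 0.62. The median H3K27me3 score of the 136 regions was 44.5 in ENR and 14.2 in CV, against 5.00 and 6.67 over all tested regions. Not every region carried it, as C4bp had 1, 5 and 2 in ENR. Their median ATAC score in ENR was 4.00 against 39.5. A call as higher in CV favours regions low in ENR, where their median H3K4me3 score was 3 against 27.7 over all tested. Regions equally low in H3K4me3 in ENR were not compared, so what this choice adds to the contrasts was not tested. The 833 regions lower in the 6-library fit had a median width of 1485 bp and a median CpG ratio of 0.79. Of these, 90.5% lay within 1000 bp of a start site, and their median scores were 107 in ENR and 71.0 in CV. This profile depended on the level trend. The 480 regions lower after level scaling had a median width of 957 bp and a median CpG ratio of 0.69, nearer to all tested regions. Of them 75.2% lay within 1000 bp of a start site, and their median scores were 45 in ENR and 26 in CV.

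Letters of known binding sites were searched on both strands in the central 300 bases. The TCF/LEF sequence AGATCAAAG was found in 0 of the 136 higher regions and in 0.370% of all 20005 tested regions with a chromosome in the annotation. The HNF4 sequence CAAAGTCCA was found in 1, 0.735% against 0.800%, and the AP-1 sequence TGACTCA in 2, 1.47% against 4.49%. Such exact matches are rare, and their absence says only that these letters are not in this window.

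Other assays of the same cultures, each from its own libraries, moved with the gains in H3K4me3. For H3K27me3, scored by the authors over regions extended to 1000 bp, 128 of the 136 regions could be tested, and 28 were lower in CV and 0 higher by limma. Over all regions tested for both marks, 2.55% were lower and 0.0724% higher. Hoxc6 had H3K27me3 scores of 11, 2 and 16 in CV and of 75, 82 and 88 in ENR, a log2 difference of -3.28 (adjusted p = 2.8e-05), and its ATAC score rose by 1.76. Hivep3 and Tshz2 lost H3K27me3 by a log2 difference of -2.46 each. At Mdga2, with 6, 40 and 13 in CV and 57, 76 and 59 in ENR, the adjusted p was 0.0569. Bmp3, which lost H3K4me3, had H3K27me3 scores of 13, 28 and 12 in CV and of 2, 5 and 7 in ENR, a difference of 1.73 that did not pass (adjusted p = 0.280).

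Accessibility and acetylation moved the other way from H3K27me3. Of 72 higher regions with enough ATAC signal to test, 46 were higher and 1 lower in CV, 63.9% and 1.39%, against 8.17% and 14.3% of all regions tested for both. The lower one lies near AC131777.1 and differed by -1.14. Of 98 regions tested for H3K27ac, the mark of active promoters and enhancers, 33 were higher and 0 lower, 33.7%, against 1.34% and 7.0%. In 14 of the 72 and 50 of the 98 regions the ENR mean was under 5, so that these passed the minimum through CV alone. The median log2 difference was 0.91 in ATAC and 1.79 in H3K27ac, against -0.06 and -0.16 over all. The calls in both histone marks depended on the fit, since without the trend of spread with level limma called 0 regions in H3K27ac in place of 1830, with 8542 at an unadjusted p under 0.05, and 84 in place of 865 in H3K27me3. The ATAC difference was 3.46 at Snap25, 2.70 at Dmrt2 and 1.46 at Mdga2, and the H3K27ac difference was 2.49 at Hoxc6, 2.45 at Tshz2 and 2.30 at C4bp, all called. Of the 5 regions that lost H3K4me3, 3 were tested in ATAC and all were lower, with -0.80 at Bmp3, -1.81 at Sall3 and -1.32 near Capn10. At Bmp3 H3K27ac also fell by 2.16 on the log2 scale (adjusted p = 0.00455).

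**Figure D4:**
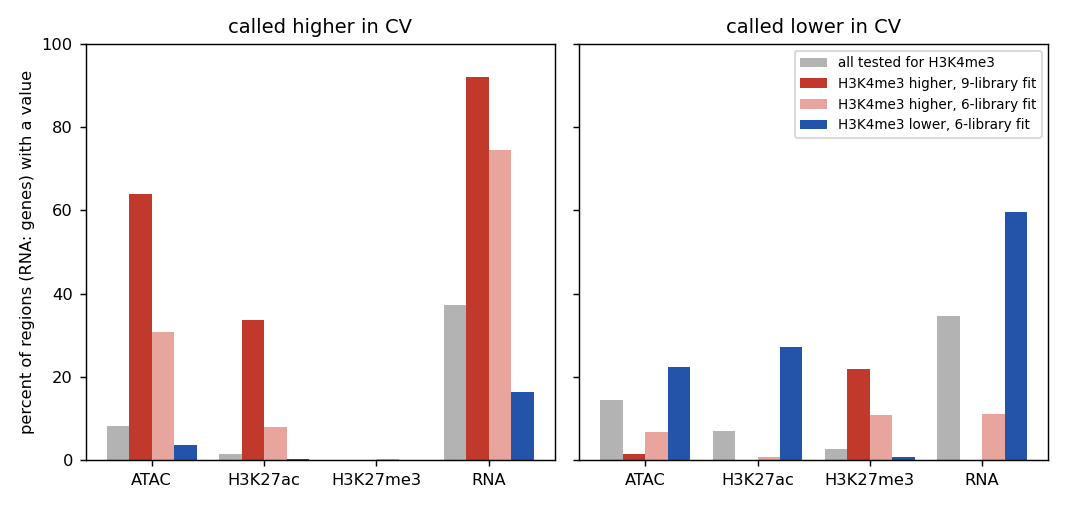
Percent of regions, or of genes for RNA, that were called higher (left) or lower (right) in CV than in ENR in 4 other assays. Grey bars are all regions tested for H3K4me3, red and pink bars the regions with higher H3K4me3 in the 9-library and 6-library fits, and blue bars those lower in the 6-library fit. In red, 63.9% were higher in ATAC, 33.7% in H3K27ac and 92.0% in RNA, and 21.9% lower in H3K27me3.

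RNA could be read for part of the genes, because the deposited table lists only transcripts whose proteins had been quantified. It held 25 genes with a higher promoter region. Of these, 23 were higher in CV and 0 lower by edgeR, against 37.3% and 34.7% of the 7564 genes with a tested promoter. In 8 of the 25 genes every ENR library held 3 counts or fewer, so their ENR level lay near the floor, and this was so for 52 of the 7564. The other two, Mast4 and 4930485B16Rik, differed by -0.31 and 1.78 and did not pass. Myh10 had 24.9, 23.4, 24.7 and 22.2 CPM (counts scaled to library size) in the 4 CV libraries and at most 0.256 in ENR, where each library held 2 counts or fewer, so its RNA was at least 45.2-fold higher. Anxa1 had 138, 153, 145 and 124 CPM in CV and 5.38, 7.04, 6.83 and 6.42 in ENR, a log2 difference of 4.45 (adjusted p = 1.2e-13). Lamb1 rose by 3.04, Mep1a by 3.01 and C4bp by 2.02. None of these groups overlapped.

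Bmp3 was the only gene with a lower promoter that had an RNA value. Its RNA was 5.93, 3.74, 3.71 and 3.86 CPM in CV and 323, 317, 307 and 348 CPM in ENR, a log2 difference of -6.23 (adjusted p = 1.1e-15). The promoter score in CV was still 31.3 ± 7.23, against 75.7 ± 5.51 in ENR. RNA and H3K4me3 could also move apart. Cd44 RNA rose by 2.02 and Hnf4g RNA fell by 1.59 on the log2 scale, with adjusted p-values of 1.1e-11 and 1.8e-12, at promoters whose H3K4me3 was not called in any of the 3 fits. Lgr5 RNA was 85.2 to 94.0 CPM in CV and 124 to 136 CPM in ENR, a difference of -0.52. Ascl2 RNA differed by -0.68 and Sox9 RNA by 0.35, so RNA of stem cell list genes went both ways. In bulk organoids, fewer cells of a type and less RNA or less of the mark per cell cannot be told apart.

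Across the 7564 genes the log2 differences in H3K4me3 and RNA had a Pearson r of 0.447 and a Spearman rho of 0.313, and 0.441 and 0.314 after level scaling. Across regions the correlation with the H3K27ac difference was 0.412 over 18901 regions, with ATAC 0.250 over 16940 and with H3K27me3 -0.148 over 13819. These are descriptions across genes and regions, which share cultures and are not independent replicates. In the 6-library fit, 335 of 449 genes with a higher promoter were higher in RNA and 50 lower, 74.6% and 11.1%. Of 505 with a lower promoter 82 were higher and 301 lower, 16.2% and 59.6%. Over all 7564 genes, 37.3% were higher in RNA and 34.7% lower.

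**Figure D5:**
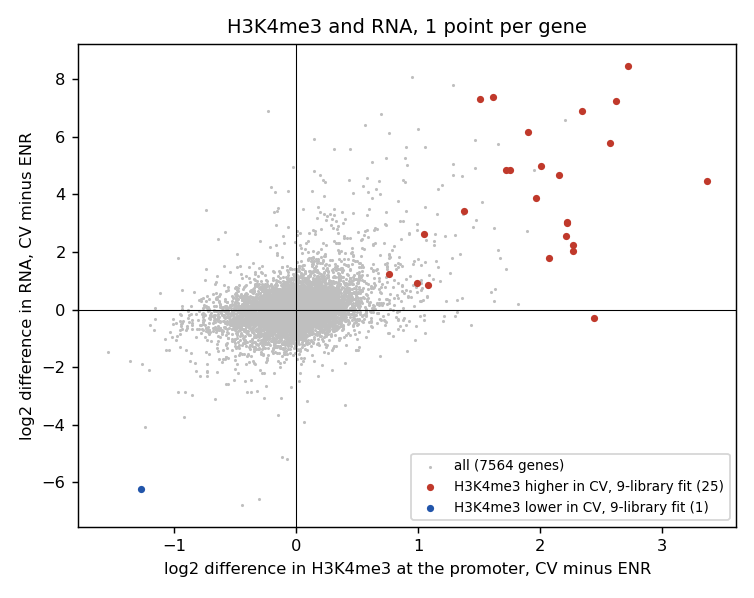
Log2 difference in RNA against log2 difference in H3K4me3 at the promoter, CV minus ENR, 1 point for each of 7564 genes. Red points are the 25 genes with a promoter region higher in CV in the 9-library fit, of which 24 lie above 0 in RNA, and the blue point is Bmp3, at -1.27 and -6.23.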

How the data were processed

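H3K4me3 was profiled by ChIPmentation, chromatin immunoprecipitation with library preparation by Tn5. Per the study's methods reads were aligned to mm9 and peaks called with MACS2, and the authors deposited a table of normalised read numbers per region of the union of all peaks, rounded to whole numbers and used here as a score whose normalisation is not given in the sources used here. H3K27ac, H3K27me3 and ATAC scores came from the same kind of table. The authors deposited RNA as kallisto expected counts, rounded here, beside TPM values that were not used. Deposited copy number signal and Hnf4g read counts entered no comparison. The labels also list libraries CV 1, ENR 3 and EN 3 of H3K4me3, but the authors' scores hold no column for them. The reason is not given in the sources used here. The depth behind the scores is unknown, so no counting interval was given.

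Scores were tested as log2(score + 1) with limma 3.58.1 (trend) at a minimum mean score of 5, and RNA with the edgeR 4.0.16 quasi-likelihood test (TMM, R 4.3.3), all with Benjamini-Hochberg adjustment at 0.05. The main design fitted CV, ENR and EN together. Alternatives were the CV and ENR libraries alone, a replicate block, other pseudocounts, scalings and minima, DESeq2 1.42.0 for RNA, and leaving out each library. An exact permutation test of 3 against 3 cannot go below p = 0.1 and was not used. Regions were named by fixed rules, as the largest promoter and distal changes with a mean of at least 20 in a culture, all called list members and a set of fixed genes. The members and lists were chosen with earlier results of these data known. Regions within 1000 bp of a start site were called promoters. Scripts were tested on simulated data. The result of 1 gene is not reported here.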

Additional observations from a re-analysis of the deposited data

Results flagged for a closer look

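Among 80 groups of 4 libraries at the named regions and genes, 8 held a library far from the other 3 by Dixon's criterion, which chance gives in about 1 in 20 groups. The ATAC score at Myh10 was 5.0 in ENR 4 and 4.0 in the others, at Sall3 25.0 in ENR 1 against 30.0 to 31.0, and near Capn10 24.0 in CV 4 against 14.0. C4bp RNA was 32.9 CPM in ENR 2 against 39.3 to 39.9, and Bmp3 RNA was 5.93 CPM in CV 1 against 3.71 to 3.86. RNA of Hnf4a was 722 CPM in ENR 4 against 701 to 704, that of Actb 1570 CPM in ENR 4 against 1530 to 1540, and that of Gapdh 1610 CPM in CV 1 against 1530 to 1540. At Myh10, Sall3, Capn10, C4bp and Bmp3 the CV and ENR libraries still did not overlap in these measures.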

How the results depend on the processing

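The number of H3K4me3 regions called in the 9-library fit (141 in all, 136 higher and 5 lower in CV) depended on the settings, and the cause was not tested. A pseudocount of 5 gave 276 (270 higher), the square root of the score 277 (272 higher), quantile normalisation 253 (53 lower), median-ratio scaling 12 lower, and no trend 225 (220 higher). All regions above 0 in at least 3 libraries gave 880 (859 higher, 21 lower) and a minimum of 20 gave 24 (22 higher, 2 lower). At an adjusted p of 0.001 limma called 0, with 3097 at an unadjusted p under 0.05. The fit of CV and ENR alone gave 2745 (1912 higher, 833 lower). Level-dependent scaling, chosen after seeing the data, gave 41 (34 higher), and 1211 in the fit of CV and ENR alone (731 higher, 480 lower). Without EN 1 there were 2035 (1437 higher, 598 lower) and without EN 4 472 (383 higher, 89 lower). Leaving out 1 CV or ENR library gave 0 to 16 regions, 0 to 15 higher and 0 to 1 lower, and in the fit of CV and ENR alone 631 to 4589, 492 to 3494 and 139 to 1095, lowest without CV 4 and highest without CV 2.

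CV and ENR share only the replicate numbers 2 and 4, and the deviations of these same-numbered libraries correlated at -0.432 and -0.000759. With EN libraries, same-numbered values lay between -0.117 (CV 2 with EN 2) and 0.393 (CV 4 with EN 4). These few values cannot decide whether the numbers pair the libraries. With a replicate block limma called 8 regions (7 higher, 1 lower), and 0 in the fit of CV and ENR alone (0 higher, 0 lower), with 1759 at an unadjusted p under 0.05. With the block Ascl2 differed by 0.0273 and Vil1 by -0.12, both turning sign.

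For H3K27ac (1830 regions) quantile normalisation gave 265, no trend 0 (8542 at an unadjusted p under 0.05), the block 877 and leaving out a library 549 to 2588. For H3K27me3 (865) these were 447, 84, 215 and 290 to 1415. Leaving out a library gave 10268 to 11651 ATAC regions (13245) and 6159 to 6290 RNA transcripts (6435). At the 22 named called regions, 247 of 404 alternative values kept the call, 157 lost it and 0 turned sign. Among uncalled genes the sign turned for Vil1 with median-ratio scaling (-0.0722) and for 4 genes when 1 library was left out, where the range was -0.213 to 0.0179 for Ascl2, -0.506 to 0.13 for Alpi, -0.0612 to 0.176 for Vil1 and -0.0272 to 0.345 for Hnf4g.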
